A study of Mus musculus with 16 samples.

Results

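MicroRNA genes were described as they stand in the mouse gene annotation deposited with a spleen RNA-seq study of tristetraprolin, the product of Zfp36, which binds AU-rich mRNAs and speeds their decay. Members were all gene symbols that begin with Mir followed by a digit or by let7 and have no coding segment (CDS line). There were 662 of them among 23337 gene symbols, or 23.4% of the 2829 symbols without a coding segment. The study sequenced polyadenylated spleen RNA of mice given no treatment in 4 groups of 4 samples, 16 in all. One group was wild type under study code NG66, one was wild type under study code NG108, one carried Zfp36-/-, TNFR1-/- and TNFR2-/- together (the triple knockout), and one carried TNFR1-/- and TNFR2-/- (the double knockout). The knockout titles carry code NG66, and age, strain and the kind of deletion are not stated in the labels used here. The file used here held gene models only and no value for any sample, so expression and genotype effects were not analysed here. The units below are genes and their positions on mm10, and they carry no replicate error.

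A microRNA is cut from a longer primary transcript. In the nucleus the enzyme Drosha, with its partner Dgcr8, frees a hairpin, and in the cytoplasm Dicer trims it to a short duplex, of which one strand guides Argonaute proteins to mRNAs. Pairing is led by the seed, bases 2 to 8 of the mature strand, so microRNAs with one seed are grouped as a family. Many hairpins lie in introns of protein-coding genes and are made from the host's transcript when both share a strand, others have transcripts of their own, and neighbouring hairpins can be cut from 1 common transcript. Hairpins that fill a whole short intron can be released by splicing in place of Drosha, and are known as mirtrons.

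The sequences on which the description turns are mature strands from RefSeq (GRCm38.p6, the assembly of mm10), placed by their coordinates. Each is written 5' to 3', with the seed in capitals. RefSeq sequences were matched to 488 of the microRNA loci defined below. The first set is shown because these microRNAs are well known in blood and immune cells, and because both miR-146 genes, on chromosomes 11 and 19, carry the same seed.
miR-155-5p: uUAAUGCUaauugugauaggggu
miR-142a-3p: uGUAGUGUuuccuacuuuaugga
miR-223-3p: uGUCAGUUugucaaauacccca
miR-146a-5p: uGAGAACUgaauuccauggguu
miR-146b-5p: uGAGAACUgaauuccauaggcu

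The second set is shown because 1 seed recurs in 3 separate clusters, on chromosomes 14, X and 5.
miR-17-5p: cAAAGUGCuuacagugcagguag
miR-20a-5p: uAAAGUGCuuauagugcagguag
miR-106a-5p: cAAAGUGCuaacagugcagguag
miR-20b-5p: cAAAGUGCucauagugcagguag
miR-106b-5p: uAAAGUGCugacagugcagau
miR-93-5p: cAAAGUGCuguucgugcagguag

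The third set is shown because each seed sits in host genes with related names.
miR-103-3p: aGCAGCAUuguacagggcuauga
miR-107-3p: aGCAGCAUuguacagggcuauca
miR-26a-5p: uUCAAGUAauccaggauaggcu
miR-26b-5p: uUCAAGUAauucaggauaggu
miR-148b-3p: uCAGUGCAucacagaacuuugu
miR-152-3p: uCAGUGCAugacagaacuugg

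How the members were placed on the genome came first, because it decides which of them can be classed. The member Mir17hg was a host transcript of 2339 bases and was set aside. The other symbols had 732 placements, a placement being 1 RefSeq accession at 1 position. Of these, 641 were single exons of 49 to 134 bases (median 83), the size of a hairpin. Another 36 were single exons of 20 to 27 bases, the size of a mature strand. The remaining 55, from 54 symbols, were split into 2 to 7 exons.

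**Figure D1:**
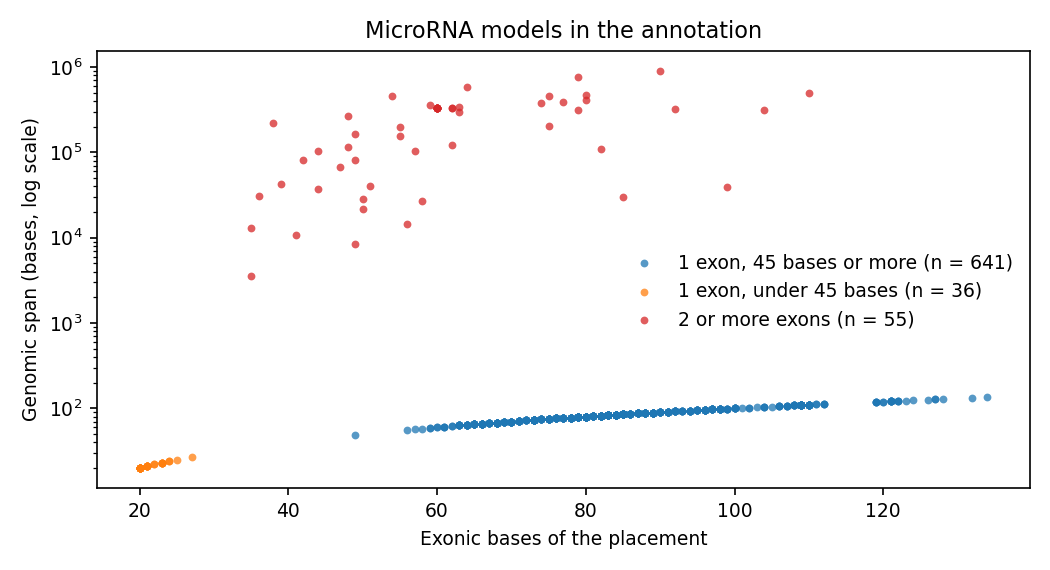
Exonic bases of each of 732 placements (x axis) against the genomic span from its first to its last base (y axis, log scale), each point being 1 placement. The 55 split placements have 35 to 110 exonic bases, against 49 to 134 for the hairpin-sized ones, but span 3511 to 907522 bases.

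The split models did not resemble hairpins. Their 225 blocks had a median of 12 bases, the shortest had 3, and 179 were under 22 bases. The median span was 263291 bases. The widest was that of Mir1195, whose 90 exonic bases lay in 6 blocks over 907522 bases of chromosome 16, from 30368176 to 31275697. RefSeq lists the same accession as 1 stretch of 98 bases on chromosome 17. Mir669e, with 79 exonic bases in 6 blocks over 760340 bases of chromosome 8, is listed by RefSeq on chromosome 2. Of the 55 split placements 31 lay across at least 1 coding gene and 24 across none, and the largest number of coding genes across 1 of them was 13.

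Set against RefSeq by accession, 566 of the 641 hairpin-sized placements (88.3%) had identical coordinates, 6 overlapped the listed position, 60 lay elsewhere and 9 had no record. Most of the 60 were extra copies, since RefSeq gives each accession a single position. Mir684-1 alone had 9 placements, and 7 symbols of the Mir467a series had 7 each. Mir3110 had 3 placements, but each was of 20 bases and so was not among the 60. None of the 36 short placements overlapped the position that RefSeq gives, with 6 of them lacking a record. The 55 split placements were not checked for overlap. Of these, 3 lay on the chromosome that RefSeq gives, and 2 had no record. The short placements included 3 of Mir421, each of 20 bases, on chromosomes 15, 3 and X, where RefSeq lists a hairpin of 76 bases at another position of X. A count of reads over the split or short models would be made at those positions.

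Most of the split models came from a few families. The Mir669 family gave 18 of the split symbols, out of 24 in the family, and Mir466 gave 8 of 11. RefSeq places 54 member accessions inside Sfmbt2 on chromosome 2, a Polycomb-group gene whose large intronic microRNA array is rodent-specific. Of the 72 accessions that were split or short here and had a RefSeq record, 37 (51.4%) belong there, 32 of them split. At the RefSeq positions 54 of the 72 would lie inside a coding gene and 18 outside, with 0 touching a coding exon.

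Single-exon placements that overlapped on 1 strand were merged, which gave 622 loci from 607 symbols. At 18 loci 2 or more symbols shared the position, and 7 loci carried 7 symbols each. Each locus was called exonic when at least 1 base lay in an exon of a gene with coding segments, on either strand. Otherwise it was called intronic on the same strand, intronic on the opposite strand or intergenic, in that order. The 55 split models were classed apart: 44 were intergenic, 5 intronic on the opposite strand, 2 intronic on the same strand and 4 exonic. A split model was called intronic only when 1 transcript of a coding gene held its whole span. Those called intergenic therefore include models that lie across coding genes, since only 24 of the 55 lay across none.

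Intergenic loci were the most numerous class, and most intronic loci shared the strand of their host. Of the 622 loci 317 (51%) were intergenic, 198 (31.8%) were intronic on the strand of the host, 42 (6.75%) were intronic on the opposite strand and 65 (10.5%) were exonic. Among the 240 intronic loci 82.5% shared the host's strand. Of the 42 opposite-strand loci 14 were not placed as in RefSeq, against 13 of the 198 same-strand loci. With only the 566 loci placed exactly as in RefSeq, 28 loci were intronic on the opposite strand, and 86.9% of 213 intronic loci shared the host's strand.

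**Figure D2:**
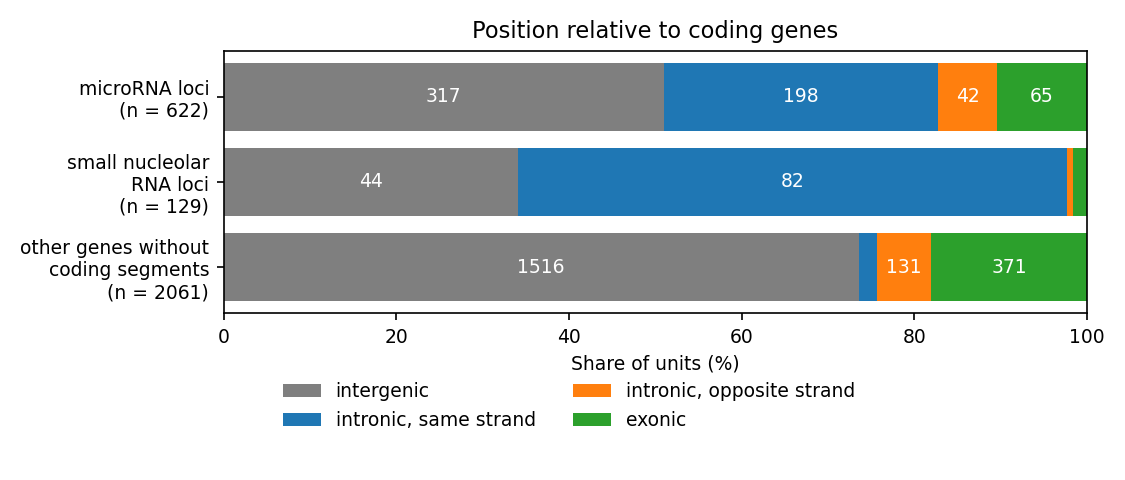
Share of units (x axis, percent) in each class for 622 microRNA loci, 129 small nucleolar RNA loci and 2061 other genes without coding segments, with the number of units printed in the larger segments. Same-strand introns hold 198 microRNA loci and 82 small nucleolar RNA loci.

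Same-strand and opposite-strand introns offered nearly the same amount of sequence. Counting each strand of the annotated chromosomes separately, same-strand introns made up 16.4% of the bases and opposite-strand introns 16.3%. The density was 22.7 loci per 100 Mb of same-strand intron and 4.84 per 100 Mb of opposite-strand intron. It was 9.17 per 100 Mb of intergenic sequence and 54 per 100 Mb of exonic sequence, the latter being only 2.27% of the bases. The exonic density is raised by the rule, which counts a locus with any exonic base but sets it against exon bases alone. Exonic loci numbered 42 in place of 65 when at least 50% of the hairpin had to be exonic. No test was made of these densities, because clustered loci are not independent.

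Small nucleolar RNAs, which guide chemical modification of ribosomal and spliceosomal RNAs and are also processed from introns, gave the nearest comparison. Of 129 such loci 82 (63.6%) were intronic on the same strand, 1 was intronic on the opposite strand, 2 were exonic and 44 were intergenic. The other genes without coding segments, each taken as its longest transcript, were intergenic in 1516 of 2061 cases (73.6%). Of the 174 inside an intron, 24.7% shared the strand of the host. MicroRNA loci thus lay between these groups in their share of same-strand introns.

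The same-strand intronic loci had 164 host genes, of which 152 held 1 locus, 8 held 2 and 4 held 3 or more. Sfmbt2 held 17, all in the array described below. Clcn5, a chloride and proton exchanger on chromosome X, held Mir500, Mir501, Mir362, Mir188 and Mir532 in its intron 2. Htr2c, a serotonin receptor gene on chromosome X, held Mir764, Mir1912, Mir1264, Mir1298 and Mir448 in introns 2 and 4. Mcm7, a subunit of the replicative helicase, held Mir25, Mir93 and Mir106b in intron 13. Hosts were long genes, with a median span of 72057 bases on the same strand and 79173 on the opposite strand, against 16463 for all coding genes.

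The 33 opposite-strand hosts included 27 with 1 locus. Larp7, which stabilises a small nuclear RNA that restrains transcription elongation, held the 5 hairpins from Mir302b to Mir367, known from pluripotent stem cells, against its own direction in intron 8. Dnm3 held Mir199a-2 and Mir214 in intron 14, Iars2 held Mir194-1 and Mir215 in intron 12, and Nr6a1 held Mir181a-2 and Mir181b-2 in intron 3, all on the opposite strand. By position, the host's own transcript carries the complement of these hairpins.

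Most intronic loci lay in long introns. The median length of the intron was 10823 bases for the 198 same-strand loci (interquartile range 2381 to 62472) and 12022 for the 42 opposite-strand loci (2702 to 49766), against a median of 1364 over 186459 distinct coding introns. For the loci an intron was counted once per locus it held. Intron 10 of Sfmbt2, of 62472 bases, thus entered 17 times and is the upper quartile of the same-strand loci. First introns held 46 of the 198 same-strand loci (23.2%) and 8 of the 42 opposite-strand loci (19%). First introns were 11.5% of all coding introns and 28.8% of their bases, so the share of loci in first introns lay between their share by number and by length. A longer intron offers more positions, and no test was made.

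The median distance to the nearest exon of the host was 2165 bases for same-strand loci and 2586 for opposite-strand loci. The upstream exon was nearer than the downstream one for 117 of 198 same-strand and 31 of 42 opposite-strand loci. Within 100 bases of a splice site there were 19 same-strand loci and 5 opposite-strand loci. The smallest distance was 0 for same-strand and 18 for opposite-strand loci.

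**Figure D3:**
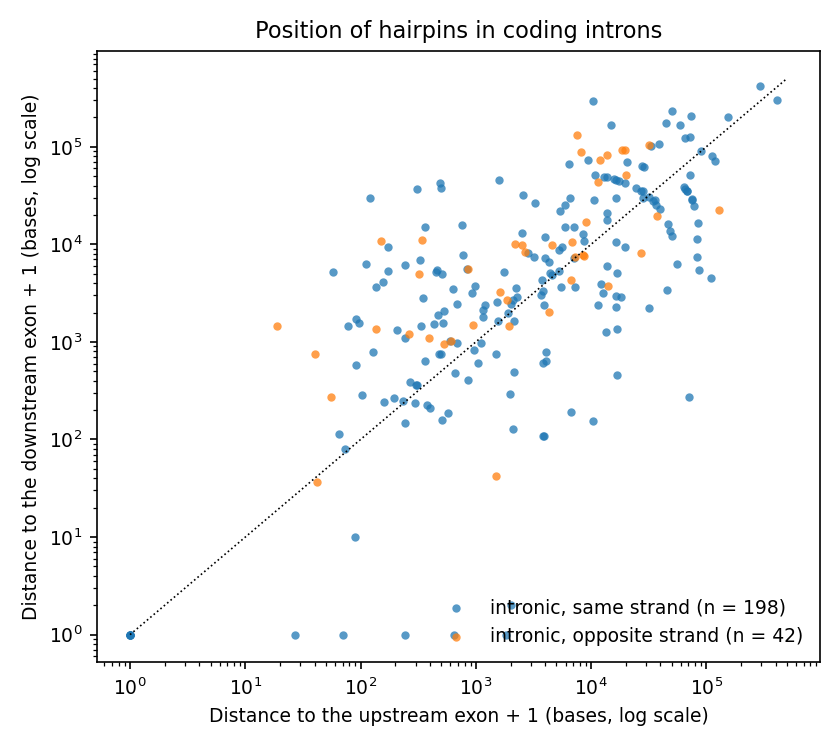
Distance of each intronic hairpin to the upstream exon (x axis) and to the downstream exon (y axis) in the direction of the host, both plus 1 and on log scales, for 198 same-strand and 42 opposite-strand loci. The dotted line marks equal distances, and the 5 hairpins that fill their intron lie together at the lower left corner.

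For 5 same-strand loci the hairpin and the intron had the same first and last base, which is the arrangement of a mirtron by position. These were Mir1224 in Vwa5b2 (85 bases), Mir1981 in Mosc2 (82 bases), Mir1982 in Oaz1 (74 bases), Mir3102 in Arhgef17 (104 bases) and Mir877 in Abcf1 (85 bases). Oaz1 encodes an inhibitor of polyamine synthesis, and Abcf1 a protein that takes part in translation initiation. The hairpin sequence was matched for 4 of the 5, and all 4 began with GU and ended with AG, the bases at which introns are cut. The mature strands are shown because they carry those ends: the first mature strand of Mir1224, Mir1981 and Mir877 began at base 1 of the intron, and the last one of Mir1224 and Mir1982 ended with its final base.
miR-1224-5p: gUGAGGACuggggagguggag
miR-1224-3p: cCCCACCUcuucucuccucag
miR-877-5p: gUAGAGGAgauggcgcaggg
miR-1981-5p: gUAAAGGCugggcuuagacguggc
miR-1982-3p: uCUCACCCuauguucucccacag

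Another 5 same-strand loci ended exactly at the downstream exon without filling the intron. They were Mir3087 in intron 28 of Abca2, with 26 bases before it, Mir3077 in intron 1 of Gm10094, with 69, Mir3100 in intron 4 of Dmpk, with 243, Mir3097 in intron 3 of Rgs12, with 642, and Mir3094 in intron 7 of Nfx1, with 1811.

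Several same-seed microRNAs lay in introns of related hosts. There were 18 seeds found in 2 or more coding genes on the same strand, in introns or, for Mir26a-2, at an exon, in 15 distinct sets of hosts. The pantothenate kinase genes Pank1, Pank2 and Pank3, which start coenzyme A synthesis, held Mir107, Mir103-2 and Mir103-1, each in intron 5. Slit2 and Slit3, which encode axon guidance ligands, held Mir218-1 and Mir218-2, each in intron 14. Copz1 and Copz2, subunits of the vesicle coat COPI, held Mir148b and Mir152, each in intron 1.

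The phosphatase genes Ctdsp1, Ctdspl and Ctdsp2 carried Mir26b in intron 4, Mir26a-1 in intron 5 and Mir26a-2, which touched an exon of 1 of 2 transcripts of Ctdsp2 by 1 base and was therefore counted as exonic. The cardiac myosin genes Myh6 and Myh7 held Mir208a in intron 29 and Mir208b in intron 31. The ion channel genes Trpm3 and Trpm1 held Mir204 in intron 7 and Mir211 in intron 6. Arpp21 and R3hdm1 held Mir128-2 in intron 14 and Mir128-1 in intron 19. In 7 of the 15 sets all host symbols shared their first 3 letters, and in 8, including Arpp21 with R3hdm1, they did not. Among these, Arrb1 and Eml2 held Mir326 and Mir330, whose 3p and 5p strands share a seed, and Huwe1 and Wdr82 held members of the let-7 family. Others were Gpc1 with Tmem184b, Ddx19b with Lmln, D730040F13Rik with Mcm7, and 2610318N02Rik with Fam33a, for 1 seed together with Cux1. The comparison was of names only, and some of the 15 sets were nested. Ctdsp1 with Ctdsp2 was counted apart from the set that also held Ctdspl, and 2610318N02Rik with Fam33a apart from that with Cux1.

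Exonic loci were of different kinds. Of the 65, 49 lay on the strand of the coding gene and 16 on the opposite one. Of the 49 on the same strand 23 lay wholly within exons and 26 only in part. Of those 26, 19 had fewer than 17 exonic bases, and these included 5 with 1 base. In 4 of the partly exonic loci the overlap of hairpin and intron was at least 80% of both: Mir3062 in Pfas (intron of 97 bases), Mir702 in Plod3 (102 bases), Mir3572 in Cnot3 (80 bases) and Mir5132 in Irak1 (76 bases). Irak1 encodes a kinase of interleukin-1 and Toll-like receptor signalling, and Pfas an enzyme of purine synthesis.

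Same-strand exonic loci touched coding sequence in 30 cases, lay in the 3' UTR in 12 and in the 5' UTR in 7. Mir21, a widely expressed microRNA raised in inflammation, lay wholly in the 3' UTR of Vmp1, an autophagy gene (chr11:86584067-86584158, minus strand). Mir147 lay in the 3' UTR of AA467197, Mir5113 in that of Tnrc6b and Mir1902 in that of Hipk3. Tnrc6b is itself a partner of Argonaute. Mir1306 lay wholly in an exon of Dgcr8, the partner of Drosha, and touched its coding sequence.

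On the opposite strand 15 of 16 exonic loci lay wholly within exons. Of these 6 were opposite the coding sequence of Rtl1, a retrotransposon-derived imprinted gene on chromosome 12. They were Mir431, Mir433, Mir127, Mir434, Mir432 and Mir136, spread from 109590447 to 109595388. Each is fully complementary to Rtl1 mRNA by position, and miR-127 and miR-433 are shown as examples, with miR-3071 because its hairpin lies on the other strand of Mir136.
miR-127-3p: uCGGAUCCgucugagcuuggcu
miR-433-3p: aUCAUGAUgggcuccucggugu
miR-136-5p: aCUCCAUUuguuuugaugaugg
miR-3071-3p: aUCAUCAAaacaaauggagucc

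Mir3071 lay on the strand of Rtl1 and overlapped Mir136 by 62 bases. There were 7 such pairs of loci that overlapped on opposite strands. The others were Mir24-1 with Mir3074-1, Mir24-2 with Mir3074-2, Mir338 with Mir3065, Mir486 with Mir3107, Mir374 with Mir374c and Mir1a-2 with Mir1b. The overlap ranged from 49 bases for Mir374 to 90 bases for Mir486. Reads over such a pair cannot be assigned to 1 member without strand, and the strandedness of the libraries is not given in the sources used here.

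Intergenic loci lay at widely differing distances from the nearest coding gene. Of the 317, 88 lay within 5 kb of one and 93 more than 100 kb away, with a median distance of 36310 bases and a range of 22 to 685618. The farthest were Mir222 and Mir221 on chromosome X, 685618 and 685019 bases from 4930578C19Rik. They were followed by Mir344d-1 and Mir344d-2 on chromosome 7, 665084 and 662925 bases from Ndn. The next, Mir28c on chromosome 8, was a 20-base placement that does not match RefSeq.

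Non-coding genes covered 62 of the 317, 32 of them touching an exon, 29 in an intron on the same strand and 1 in an intron on the opposite strand. These genes numbered 32. Mirg held 10, D7Ertd143e held 6 of the stem cell cluster from Mir291a to Mir295, A230057D06Rik held 5 of the Mir344 group, and Rian held Mir341, Mir1188 and Mir370. Dleu2 held Mir16-1 and Mir15a in an intron, and H19 held Mir675. The other 255 loci lay in no annotated gene but their own, and 121 of those had no microRNA neighbour within 10 kb on the same strand.

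A cluster was called where neighbouring loci on 1 strand were separated by at most 10 kb. There were 64 clusters with 238 loci (38.3%), leaving 384 isolated loci. Of the clusters 43 had 2 loci, 10 had 3 and 11 had 4 or more. The 4 largest held 81 loci, 34% of those in clusters. Clusters were short, with a median span of 856 bases and a range of 166 to 45477. Of 174 gaps inside clusters 102 (58.6%) were under 1 kb, with a median of 620 bases and a minimum of 11.

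**Figure D4:**
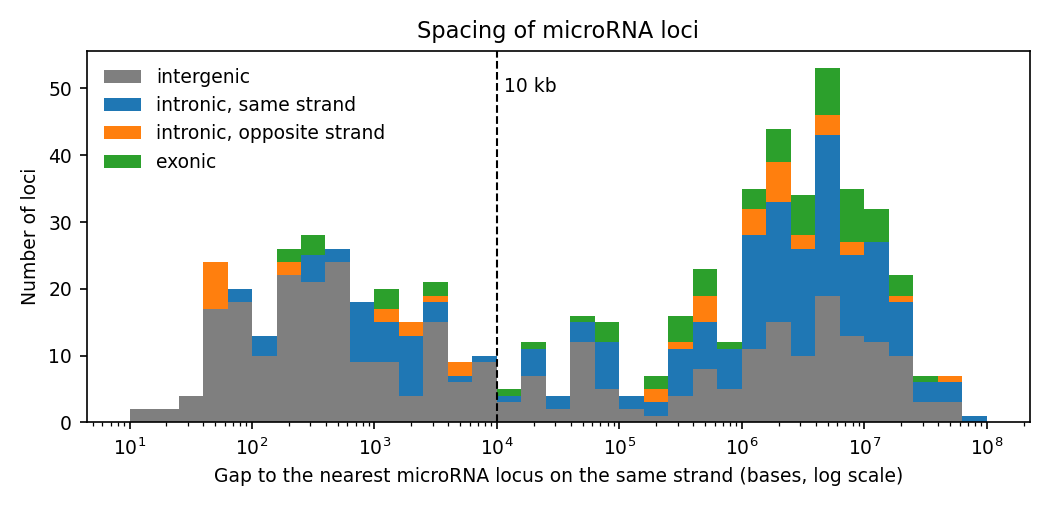
Gap from each locus to the nearest microRNA locus on the same strand (x axis, bases, log scale) against the number of loci (y axis), stacked by class, with the 10 kb limit as a dashed line. There are many short gaps, 270 loci with a nearest neighbour more than 1 Mb away, and few loci just beyond the limit, with 10 between 10 and 20 kb.

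The limit of 10 kb fell in a sparse part of the distribution. The widest gaps inside it were 9056 bases between Mir883a and Mir883b, 9208 between Mir344d-3 and Mir344e, and 9254 between Mir1a-1 and Mir133a-2. The narrowest beyond it were 10735 between Mir216b and Mir216a, 11929 between Mir470 and the next Mir465c locus, and 11978 between Mir697 and Mir698.

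Clustering went with class. Of intergenic loci 172 of 317 (54.3%) were in a cluster, against 40 of 198 same-strand intronic loci (20.2%), 16 of 42 opposite-strand intronic loci (38.1%) and 10 of 65 exonic loci (15.4%). Of the 64 clusters 62 held loci of 1 class: 44 were intergenic, 10 intronic on the same strand, 6 intronic on the opposite strand and 2 exonic. No test was made, since members of 1 cluster share their position.

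Chromosomes 12 and X held the most loci. Chromosome 12 had 76 loci, 54 of them in clusters, or 12.5 per 100 coding genes, and X had 71, 49 of them in clusters, or 8.22 per 100 coding genes. Over the whole annotation there were 3.03 loci per 100 coding genes, and chromosome 17 had the fewest of the autosomes at 1.08. Isolated loci were less concentrated, with 22 each on chromosomes 12 and X and 37 on chromosome 11.

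On chromosome 12, 57 of the 76 loci (75%) lay within 208 kb, between the start of Meg3 and the end of Mirg (chr12:109540996-109749457). This is the imprinted Dlk1-Dio3 domain, whose non-coding RNAs are made from the maternal chromosome. Of the 57 loci 56 lay on the plus strand, 56 were placed exactly as in RefSeq, 15 were covered by a non-coding gene and 7 were exonic to Rtl1 on either strand. They formed the largest cluster, 37 loci from Mir379 to Mir3072 over 38901 bases, the third largest, 14 loci from Mir770 to Mir136 over 31697 bases, and a cluster of 3 in Rian. The largest cluster had 61 distinct seeds among 36 loci with sequences, and 11 of those loci shared a seed with another member.

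**Figure D5:**
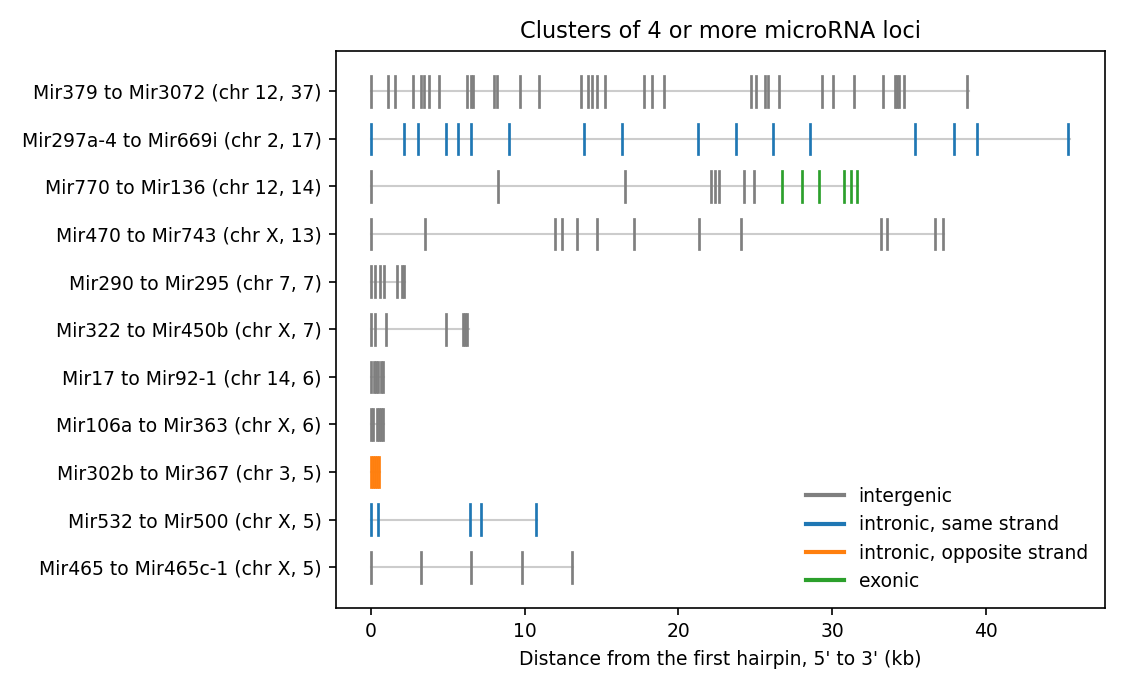
Positions of hairpins (vertical ticks) in the 11 clusters of 4 or more loci, as distance from the first hairpin in the 5' to 3' direction (x axis, kb), coloured by class, with the chromosome and the number of loci beside each name. The Mir17 and Mir106a clusters each pack 6 hairpins into under 1 kb, and the last 6 hairpins of the Mir770 cluster are exonic.

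The second largest cluster was the array in Sfmbt2, with 17 loci over 45477 bases and gaps of 637 to 6725 bases (median 2356). As given above, RefSeq places 54 member accessions in this gene, so the file shows the array only in part. The fourth was a run of 13 loci over 37269 bases of chromosome X, from Mir743 to Mir470, known for expression in testis. It was followed, 11929 bases away, by a cluster of 5 Mir465 loci with 2 distinct seeds in all, each shared by other members. The Mir290 to Mir295 cluster on chromosome 7 held 7 loci in 2216 bases, and 5 of its loci shared a seed. The sixth largest cluster, from Mir450b to Mir322 on chromosome X, held 7 loci in 6353 bases, and 3 of its loci shared a seed.

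The best known blood cluster ran from Mir17 to Mir92-1 on chromosome 14, with 6 loci in 836 bases (chr14:115043671-115044506, plus strand). It is amplified in B cell lymphomas and acts in B cell development. The gaps between its hairpins were 35 to 96 bases. The annotated host transcript Mir17hg was a single exon from 115044390 to 115046728, so it covered Mir92-1 and the last bases of Mir19b-1, which ends at 115044391, and none of the first 4 hairpins. Its relative on X, with Mir106a, Mir18b, Mir20b, Mir19b-2, Mir92-2 and Mir363, held 6 loci in 875 bases, and the other, in Mcm7, held 3 in 498 bases.

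These 3 clusters shared seeds. The seed AAAGUGC of miR-17-5p lay at 6 loci, namely the 6 printed above. Among the matched strands it occupied all 3 clusters and no other place. The seed AUUGCAC of miR-92a-3p and miR-25-3p lay at 7 loci, which also included Mir367 of the stem cell cluster, Mir92b and Mir32. The chromosome 14 and X clusters had another 4 seeds that they shared with each other and with no further cluster.

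Seed sharing differed among clusters. Of the 53 clusters with sequences for at least 2 loci, 28 had a seed present at more than 1 locus. The other 25 had none among the matched strands. Strands from both arms were matched at 350 of the 488 loci with sequences, so a seed on an unmatched strand would be missed. In 35 clusters at least 1 seed recurred in another cluster. Mir23a, Mir27a and Mir24-2 on chromosome 8 shared no seed among themselves, but 3 seeds were shared with Mir23b, Mir27b and Mir24-1 on chromosome 13. They were UCACAGU of miR-27a-3p and miR-27b-3p, GGCUCAG of miR-24-3p, and UGCCUAC of miR-24-1-5p and miR-24-2-5p. The matched sequences gave no seed shared by Mir23a and Mir23b. They gave 5 distinct seeds for the 3 loci on chromosome 13, against 6 on chromosome 8. Not every arm on chromosome 13 was thus matched, so a seed shared by Mir23a and Mir23b may have been missed. By the matched seeds each of these clusters held unlike members, and the Mir27 and Mir24 members had a counterpart in the other cluster. The let-7 seed GAGGUAG was the most widespread of the matched seeds, at 12 loci on 8 chromosomes. These loci included Mir98 and Mir1961, which do not carry let-7 names, and did not include Mirlet7a-2. Of all 672 distinct seeds 98 occurred at 2 or more loci and 574 at 1.

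A list of 74 names of microRNAs known in blood and immune cells, or named beside tristetraprolin targets, was examined as a group. Of these 72 had a locus, and the 2 without one, Mir21a and Mir451a, are later names of Mir21 and Mir451, which were present. All but 1 of the 72 loci had the RefSeq coordinates, and the exception, Mir181b-2, overlapped them. Of the 72, 55 (76.4%) were intergenic, 13 (18.1%) intronic on the same strand, 2 intronic on the opposite strand and 2 exonic. For all loci the intergenic share was 51%. In clusters there were 53 of the 72 (73.6%), against 38.3% of all loci. The list names several clusters whole, such as that from Mir17 to Mir92-1, so its clustered share was set in part by how it was written. The list holds only let-7 names and numbers up to 500, and among all 319 loci with such names 63% were intergenic and 57.4% were in a cluster.

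Several members known from blood lineages were isolated. Mir155, induced in activated lymphocytes and macrophages, lay at chr16:84714140-84714204 on the plus strand, 3375 bases from Mrpl39, with no annotated gene over it. Mir142, a marker of blood cells, lay at chr11:87756864-87756927, 3613 bases from Bzrap1. Mir146, which restrains NF-kB signalling, lay 45786 bases from Pttg1 on chromosome 11, and Mir146b lay 4101 bases from Cuedc2 on chromosome 19. Mir223, a myeloid microRNA, touched an exon of the non-coding gene F630028O10Rik on chromosome X, 4276 bases from Vsig4.

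The erythroid pair Mir144 and Mir451 lay on chromosome 11, 305 and 134 bases from Eral1. Mir486, also erythroid, lay in the last of 43 introns of Ank1, the ankyrin gene of the red cell membrane, on the same strand. Mir126, an endothelial and blood progenitor microRNA, lay in intron 6 of Egfl7, which had 600 bases. Mir15b and Mir16-2 lay in intron 5 of Smc4, a condensin subunit, 111 and 241 bases from the upstream exon. Mir33 lay in intron 16 of Srebf2, a regulator of cholesterol synthesis. The 13 same-strand intronic loci had 9 hosts, and Mcm7, with 3, had the most.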

How the data were processed

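The deposited data used here are 1 gene annotation in GTF format of 595686 lines for mm10, per the file name and the submitters' processing notes, which also name TopHat2 2.0.4. Its maker, the counting method and library strandedness: not given in the sources used here. Its score field was empty on every line, and 0 columns held sample values, so depth is unknown and the planned genotype comparisons were not run. The members, lists and rules were chosen with earlier results of these data known. The treatment of split placements, short placements and Mir17hg was chosen after the file was seen.

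Coordinates are 1-based. A hairpin-sized placement has 1 exon of 45 bases or more. Introns were taken over all transcripts of genes with CDS lines, using the shortest that contains the locus. A hairpin filled an intron when their overlap was at least 80% of both. RefSeq positions and mature sequences (GRCm38.p6) were matched by accession and by position. Genes were named by a written rule: hosts of 3 or more loci, the 10 largest clusters, exonic loci, the loci nearest splice sites, the farthest intergenic loci, symbols at 3 or more places and the blood list. The same-seed hosts, non-coding hosts, loci that tie at a splice site, opposite-strand pairs, hosts of 2 loci and split examples were named after their values were seen. Of the exonic loci, being more than 30, only some were named. Hairpins were folded with RNAfold 2.7.2. Python 3.11.15, numpy 2.4.6 and matplotlib 3.10.9 were used. Classing and clustering were tested on simulated annotations. No statistical test was made.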

Additional observations from a re-analysis of the deposited data

How the results depend on the processing

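No paired analysis was possible because the file used here carries no sample values. Cluster counts under every alternative run, and most class counts, stayed within 1.5 times of those reported. The exceptions were exonic loci, 65 as reported, which numbered 43 when only coding sequence counted, 42 when at least 50% of the hairpin had to be exonic, and 103 when non-coding genes could be hosts. Intergenic loci numbered 190 with 1 unit per cluster in place of 317. Opposite-strand intronic loci numbered 28 with RefSeq-identical loci only, an alternative added after the file was seen, in place of 42. The median distance of same-strand loci to a splice site stayed within that bound, at 2063 bases with the longest transcript of the host in place of 2165. Fewer units or other exons entered each by construction. Clusters numbered 64 with a limit of 5 kb and 73 with 50 kb. RefSeq sequences were matched to 488 of 622 loci, and from both arms to 350 of them, which limits the statements on seeds.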

Other observations

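Loci differed by the number in their name, which is given in order of registration. Of 319 loci with let-7 names or numbers up to 500, 14 (4.39%) were exonic and 183 (57.4%) were in a cluster. Of 184 loci with numbers over 1000, 37 (20.1%) were exonic and 14 (7.61%) were in a cluster. The share placed exactly as in RefSeq was 94.7% and 85.3% in these groups. Among loci with a matched mature sequence, 64.9% of the low-numbered ones (174 loci) shared a seed with another locus, against 12% (16 loci) of those over 1000. RefSeq listed mature strands from both arms for 87.7% and 48.9% of them. The grouping by number was chosen after the classes were seen, and no test was made.

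Sequence features were compared between classes over the 485 hairpins matched by identical coordinates. The median GC share was 47.6% for 262 intergenic, 50.6% for 148 same-strand intronic, 52.3% for 21 opposite-strand intronic and 55.5% for 54 exonic hairpins. The predicted folding energy released per 100 bases had a median of 42.6 kcal/mol for intergenic hairpins (interquartile range 38.3 to 48.4) and 41.8 for exonic ones (35.5 to 48.3), and these ranges overlapped. It was 44.3 for same-strand and 41.3 for opposite-strand intronic hairpins. A seed found at another locus was present at 53.6% of intergenic loci with sequences and at 5.56% of exonic ones, which were 3 loci. For same-strand and opposite-strand intronic loci it was 31.3% and 56.5%, the latter of 23 loci. Mature strands from both arms were listed for 79.3% of intergenic and 40.7% of exonic loci, and for 72% and 56.5% of the 2 intronic classes. Of 838 mature strands 36.5% began with U, with 39.1% for intergenic and 34.2% for exonic loci. The share was 34.9% for same-strand and 19.4% for opposite-strand intronic loci, the latter being 7 of 36 strands.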
